A study of Mus musculus with 2 samples.

Results

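The genes described here are 42 endothelial and angiogenic genes of the mouse ovary, of 18193 genes that the array's annotation names. They were chosen as every probe set (a group of short probes against 1 transcript) whose annotation names exactly 1 gene and whose gene is on a list of growth factors, receptors, endothelial markers and transcription factors of blood vessels. The list matched 81 of 45101 probe sets, at least 1 for each gene. Total RNA of whole ovaries was compared between 2 arrays, 1 per treatment. All mice were wild type CD-1, 24 to 28 days old, and all had been given 5 IU of pregnant mare serum gonadotropin, which grows preovulatory follicles, and 48 h later 5 IU of human chorionic gonadotropin (hCG), which starts ovulation. At 2 h after hCG the mice of one group got oil vehicle and those of the other got ulipristal acetate (also labelled CDB), a selective modulator of the receptor for progesterone. Ovaries were taken at 11 h, and the labels do not say from which injection this was counted or how many mice each sample holds.

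The design asks how the drug alters the ovary's transcripts during the ovulatory response. Since each treatment has a single array, animals within a treatment cannot be compared and no test, standard deviation or p-value can be given, and every difference is one between these 2 samples. Signals are in arbitrary units. A gene's value is that of its brightest probe set, and it counts as measured where the geometric mean of both signals is at least 30.8. Ratios are ulipristal over vehicle, and a gene is called higher or lower at 2-fold. Over the 11364 genes measured, 3.34% were called higher and 1.56% called lower. The progesterone receptor target Edn2 read 3363 with vehicle and 134 with ulipristal, and the receptor gene Pgr read 49.2 and 351.

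Vessels grow and regress with each follicle. The preovulatory follicle carries a capillary net in its theca, the outer layer, which enters the granulosa layer as the follicle becomes a corpus luteum. Vascular endothelial growth factors (VEGFs) from follicle cells act on receptor kinases of endothelium, angiopoietins act through the receptor Tek on vessel stability and leakiness, and factors of the ETS and SOX families keep the endothelial programme on. In RNA from a whole ovary, fewer endothelial cells and less RNA per cell cannot be told apart. Probe sets differ in brightness for the same amount of RNA, so signals are compared between arrays and not between genes.

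Few of these genes differed by 2-fold or more between the arrays. Of the 42 genes 41 were measured, and only the tip cell gene Esm1 was too dim. Tie1 and Pecam1 were at least 2-fold higher with ulipristal, Selp was lower by that much or more, and 38 lay between. The median log2 ratio of the 41 was 0.17, beside 0.09 over all measured genes. Of the 41, 30 were above 0 (73.2%), beside 60.0% of all measured genes. Members and all genes were not matched for signal in these comparisons. The median log2 ratio of measured genes was 0.25 at signals from 30.8 to 98.8 and -0.07 at signals above 505, where only 3 members lie. The members above 0 numbered 27 after median centring or lowess centring and 28 after quantile normalization. For 21 of the 41 the signals differed by less than 1.2-fold, and 51.4% of all measured genes lay within that limit. The called shares, 2 and 1 of 41, stand beside 3.34% and 1.56% of all measured genes. By probe set the count was the same, with 2 of 66 measured probe sets at least 2-fold higher and 1 lower, against 3.2% and 2.02% of all measured probe sets that name 1 gene. The other 15 probe sets of the members had signals from 0.22 to 33.9 and were not counted.

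**Figure D1:**
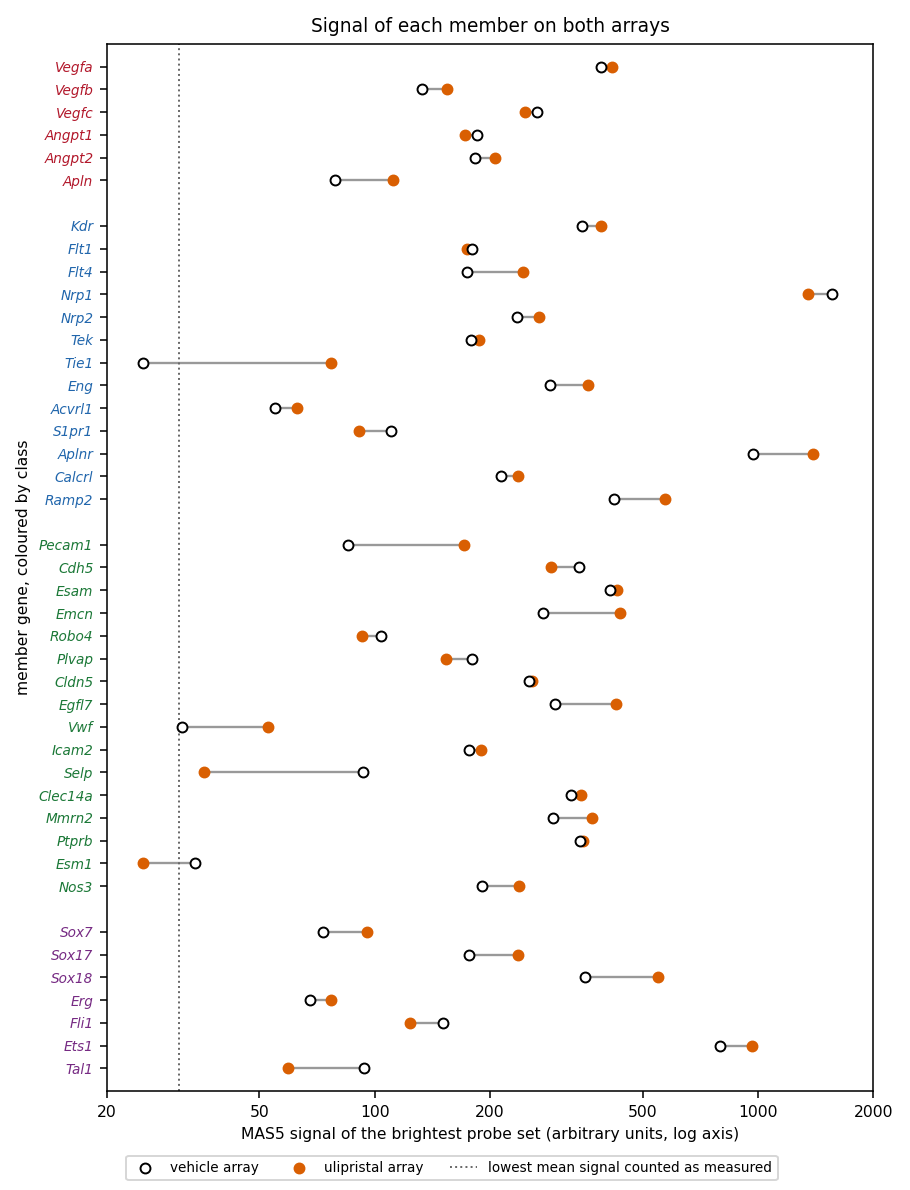
MAS5 signal (log axis, arbitrary units) of the brightest probe set of each of the 42 genes on the vehicle array (open circles) and the ulipristal array (filled circles), with gene names coloured by class. Most pairs lie close together, and the widest gaps are those of Tie1 (24.8 and 76.8), Selp (93.2 and 35.9) and Pecam1 (85.2 and 171).

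Sequence upstream of Tie1 and Selp is printed because these 2 genes had the highest and the lowest ratio of the members. Each run is the 250 bases before the RefSeq transcription start (build GRCm38.p6), 5′ to 3′ on the gene's strand. Capitals mark GGAA or its reverse complement TTCC, the core of sites bound by ETS factors such as Ets1, Fli1 and Erg. The Tie1 window is chr4:118489850-118490099 on the minus strand, and the Selp window is chr1:164115014-164115263 on the plus strand.
Tie1: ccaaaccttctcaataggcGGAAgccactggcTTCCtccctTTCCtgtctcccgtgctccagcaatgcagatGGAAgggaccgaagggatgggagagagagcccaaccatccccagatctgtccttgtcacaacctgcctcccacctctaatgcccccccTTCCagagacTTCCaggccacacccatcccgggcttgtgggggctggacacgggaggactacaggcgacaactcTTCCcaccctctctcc
Selp: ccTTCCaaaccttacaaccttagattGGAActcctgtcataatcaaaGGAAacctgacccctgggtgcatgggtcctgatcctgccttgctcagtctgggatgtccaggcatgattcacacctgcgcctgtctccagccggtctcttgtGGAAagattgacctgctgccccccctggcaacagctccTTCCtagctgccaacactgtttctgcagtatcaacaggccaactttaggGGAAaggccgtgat
The Tie1 window held 7 such cores and the Selp window 6, and the median over all 32851 promoter windows of this length was 3. The median over the members' windows was 3 too. A window of Clec14a and one of Vegfa also held 6, and these genes had log2 ratios of 0.08 and 0.09. At least 1 core stood in 93.4% of all windows and in 26 of the 28 windows that the RefSeq promoter table holds for 22 of the 42 genes. The share among these genes' windows was thus 92.9%, close to that of all windows. The hexamer TGTTCT, a core of sites bound by the progesterone receptor, searched on both strands, was in neither printed window. It stood in 3 of the 28 windows (1 each of Egfl7, Tal1 and Tek) and in 16.1% of all windows. The SOX core ACAAT, also searched on both strands, was in 6 of the 28 and in 27.7% of all. A longer ETS site, CCGGAAG, which contains the core, was in none of the 28 and in 6.91% of all, and the GATA site AGATAA was in 3 of the 28 and in 9.99% of all. Matches of different motifs may share bases, and a match is a description of the letters only.

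All 6 growth factors were measured, and none reached 2-fold. Over all measured genes 3.34% were called higher and 1.56% lower, so a class this small may hold no call without differing from them. Their median log2 ratio was 0.13. Vegfa, the main driver of vessel growth and leakiness, read 389 with vehicle and 415 with ulipristal on its brighter probe set and 53.6 and 73.0 on the dimmer, with log2 ratios of 0.09 and 0.45. Vegfb, a ligand of Flt1, read 133 and 155. Vegfc, the ligand of Flt4 that is best known for lymphatic growth, read 264 and 246 on its brightest probe set, 176 and 190 on the next and 120 and 194 on the third. These 3 probe sets differed in sign, from a log2 ratio of -0.10 to 0.69, so the array gives Vegfc no single direction.

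The angiopoietins differed little as well. Angpt1, which activates Tek and steadies vessels, read 185 and 172. Angpt2, which in most settings opposes Angpt1 and loosens vessels, read 183 and 206. Their log2 ratios of -0.10 and 0.17 point apart but are both small. The highest ratio among the growth factors was that of Apln, the peptide apelin of sprouting endothelium, which read 78.8 and 111, a 1.41-fold higher signal with ulipristal.

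Among the 13 receptors, all measured, 1 was at least 2-fold higher and none lower, beside 3.34% and 1.56% of all measured genes. Their median log2 ratio was 0.19. The receptors of VEGF differed by small steps. Kdr, the receptor that carries most VEGF signal in endothelium, read 347 and 390. Flt1, which binds VEGF tightly and limits its action, read 179 and 174 on the brightest probe set, 139 and 111 on the second and 64.1 and 97.1 on the third. The measured Flt1 probe sets therefore gave log2 ratios on both sides of 0, from -0.32 to 0.60. The gene is known to make a soluble as well as a membrane form, and the annotation used here does not say which form each probe set reads. Flt4, the receptor for Vegfc, read 174 and 244, which is 1.40-fold higher with ulipristal. Its other probe set, too dim to count, read 21.0 and 19.5.

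The neuropilins, which bind VEGF beside the kinase receptors, had 4 measured probe sets each. Nrp1 read 1561 and 1353 on the brightest, and its log2 ratios ran from -0.49 to 0.32. Nrp2 read 235 and 269 on the brightest, and all 4 of its ratios lay above 0, from 0.19 to 0.42. The highest of these came from the dimmest Nrp2 probe set, at 29.3 and 39.2. Its vehicle signal lay under the limit of 30.8, and only the mean of both arrays carried it past. So Nrp2 was higher by every probe set, each time by less than 2-fold, whereas Nrp1 was not of one sign.

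Tie1 and Tek are the paired receptor kinases of the angiopoietin system, in which Tie1 has no ligand that binds it firmly by itself and modifies the signal of Tek. Tie1 read 24.8 with vehicle and 76.8 with ulipristal, a 3.10-fold higher signal and a log2 ratio of 1.63. Tek read 178 and 187, a log2 ratio of 0.07 that turned to -0.04 after quantile normalization and after lowess centring. The receptors of the pair thus differed by 1.63 and 0.07 on the same 2 arrays. Each rests on 1 probe set. The Tie1 vehicle signal lies under the limit for a measured gene, and only the mean of both arrays carried Tie1 past it. Among the 2841 dimmest measured genes, with mean signals from 30.8 to 98.8, 9.61% were called higher, so such calls were more frequent at the signals of Tie1 than over all genes. With 50 added to both signals in place of the floor, the log2 ratio of Tie1 was 0.76.

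The receptors of the BMP and transforming growth factor beta family in vessels stayed under 2-fold. Eng, the coreceptor endoglin, read 287 and 360 on one probe set and 357 and 219 on the other, with log2 ratios of 0.33 and -0.70. These opposite readings leave Eng without a direction. Acvrl1, the kinase ALK1 with which Eng works, read 54.8 and 62.6 on its brighter probe set and 37.3 and 54.3 on the other. Both were higher with ulipristal, with log2 ratios of 0.19 and 0.54.

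The G protein-coupled receptors split in direction. Aplnr, the apelin receptor, read 968 and 1394 on the brighter probe set and 84.5 and 109 on the dimmer, a log2 ratio of 0.53 and 0.37. Apelin and its receptor were therefore both higher by their brightest probe sets, at 1.41-fold and 1.44-fold. S1pr1, the sphingosine 1-phosphate receptor that tightens endothelial junctions, read 111 and 91.2 and was lower by 0.28 on the log2 scale. Calcrl, which forms the adrenomedullin receptor with Ramp2, read 213 and 237. Ramp2, its partner protein, read 420 and 571, which is 1.36-fold higher. Adm, the peptide they bind, read 117 and 79.6, lower by 1.47-fold, so peptide and receptor subunits lay on opposite sides of 1.

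Of the 16 endothelial markers 15 were measured, with a median log2 ratio of 0.08. At least 2-fold higher was 1 and lower 1, beside 3.34% and 1.56% of all measured genes. The junction proteins did not move as one. Pecam1, the adhesion molecule CD31, read 85.2 and 171, 2.01-fold higher on its 1 probe set. Cdh5, the cadherin that seals endothelial junctions, read 340 and 288, 1.18-fold lower. Esam, an adhesion molecule of tight junctions, read 412 and 429, and Cldn5, the claudin of tight junctions, read 253 and 257. The ratios of Esam and Cldn5 changed sign with at least 1 other scaling of the arrays, so neither has a direction. Among the next 2841 genes by signal, from 98.8 to 225, where Pecam1 lies, 2.53% were called higher and 1.2% lower. Pecam1 passed 2-fold by a small margin, and its log2 ratio of 1.01 was 0.95 after median centring, 0.90 after quantile normalization and 0.88 after lowess centring. Leukocytes and platelets also carry Pecam1. The 9 measured leukocyte genes had log2 ratios from -0.34 to 0.90 with a median of 0.20, the highest that of Ptprc, the common leukocyte antigen, at 61.1 and 114. The part of those cells in the Pecam1 value was not tested.

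The remaining surface and matrix markers, apart from Selp and Vwf, all lay under 2-fold, and those with the higher ratios are given first. Emcn, the sialomucin endomucin of veins and capillaries, read 274 and 436, a 1.59-fold higher signal. Egfl7, a secreted matrix protein of vessels, read 295 and 425 on the brightest of 4 probe sets, and all 4 lay above 0, with log2 ratios from 0.17 to 0.53. Mmrn2, a matrix protein that binds Clec14a, read 292 and 368 on its brightest probe set. Its 4 log2 ratios ran from -0.01 to 0.55. Clec14a itself, a lectin-like surface protein, read 326 and 344 on one probe set and 195 and 166 on the other, on both sides of 1. Nos3, the endothelial nitric oxide synthase, read 190 and 238, which is 1.25-fold higher.

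Other surface markers were level or somewhat lower. Icam2, an adhesion molecule for leukocytes, read 176 and 189. Ptprb, the phosphatase that restrains Tek, read 343 and 349 on the brighter and 278 and 239 on the next probe set. Plvap, the protein of the diaphragms of fenestrated capillaries, read 179 and 153, and Robo4, a guidance receptor that stabilises vessels, read 104 and 92.6. Cdh5, Plvap and Robo4 thus had a lower signal with ulipristal, each by less than 1.2-fold. Esm1, a secreted proteoglycan of tip cells, read 33.9 and 24.8 and was not counted.

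Selp and Vwf are stored together in the granules that endothelium empties when activated, and they lay apart on these arrays. Selp, the P-selectin that lets leukocytes roll, read 93.2 with vehicle and 35.9 with ulipristal, 2.60-fold lower. Vwf, the von Willebrand factor, read 31.5 and 52.6, 1.67-fold higher. Selp has 2 dimmer probe sets, both under the limit for measured genes. They read 23.8 and 23.9, and 13.0 and 26.1, so neither repeats the lower signal of the brightest. Selp and Vwf both lie among the 2841 dimmest measured genes, of which 1.97% were called lower. Platelets also hold both proteins, and their markers Pf4, Itga2b and Gp1bb read 143 and 157, 66.2 and 69.7, and 29.0 and 34.4. The summed signal of these 3 measured platelet genes, of 8 on the list, was 239 with vehicle and 261 with ulipristal. Of the 5 platelet genes too dim to count, Ppbp read 27.8 and 15.3, Gp9 14.0 and 2.65 and Treml1 22.4 and 19.1, lower with ulipristal, whereas F5 read 16.7 and 21.9 and Gp6 was under the floor on both arrays. The part of platelets in the Selp value was not tested.

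**Figure D2:**
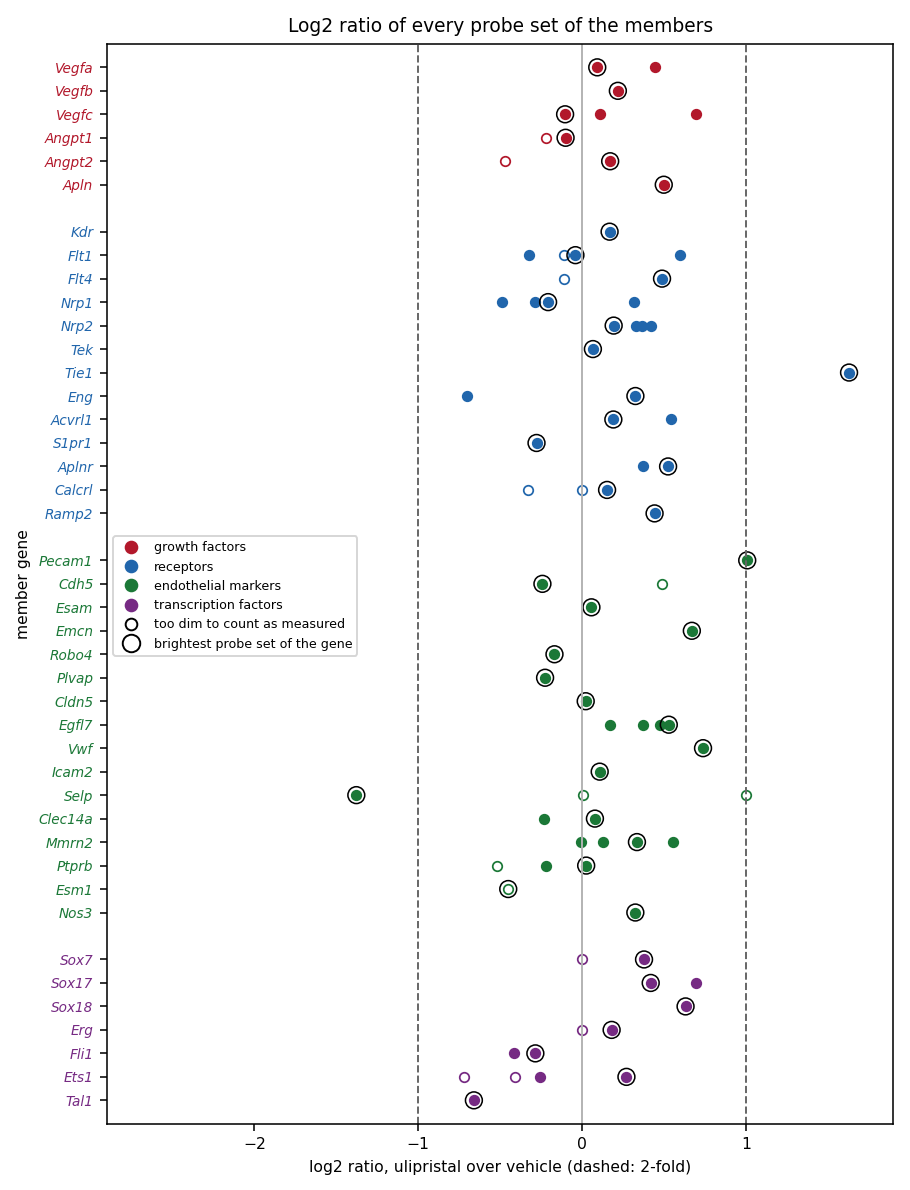
Log2 ratio of each of the 81 probe sets of the 42 genes, by class, with open points for those too dim to count and a black ring on the brightest of each gene. Only the brightest probe sets of Tie1, Pecam1 and Selp lie past the dashed 2-fold lines among measured ones, Nrp2 and Egfl7 lie above 0 throughout, and Flt1, Nrp1, Eng and Ets1 straddle 0.

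All 7 transcription factors were measured, and their median log2 ratio was 0.27. None reached 2-fold, beside 3.34% of all measured genes called higher and 1.56% lower. The 3 factors of the SOXF group, which act redundantly in endothelial identity and artery and lymph vessel formation, were higher with ulipristal, also under each other scaling tried. Sox7 read 73.3 and 95.3, Sox17 read 176 and 236 on one probe set and 82.8 and 134 on the other, and Sox18 read 353 and 548. Their folds were 1.30, 1.34 and 1.55, each less than 2-fold. Sox7, at a log2 ratio of 0.38, lies among the 2841 dimmest measured genes, whose median log2 ratio was 0.25. All 3 ratios were above 0, as were 60.0% of all measured genes. By their brightest probe sets, Sox18 was the 1 gene of these 3 past 1.5-fold, as were 12.3% of all measured genes in this direction. The dimmer Sox17 probe set was 1.62-fold higher.

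The ETS factors did not share a direction. Erg, which keeps endothelial junction genes on, read 67.7 and 76.8. Fli1, a related factor also found in blood cells, read 151 and 124 on one probe set and 47.2 and 35.3 on the other, lower by 0.28 and 0.42 on the log2 scale. Ets1, which responds to growth factors, read 798 and 963 on its brightest probe set and 636 and 533 on the next, with log2 ratios of 0.27 and -0.25. Tal1, a factor of blood and endothelial lineages, read 93.8 and 59.4, 1.58-fold lower, the lowest ratio among the 7.

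The agreement of probe sets bounds how finely these ratios can be read. Of the 41 measured genes 26 had 1 measured probe set, Tie1, Pecam1 and Selp among them. Of the other 15, the measured probe sets agreed in sign for 7 and differed in sign for 8. Between the 2 brightest measured probe sets of a gene the log2 ratio differed by a median of 0.24 over these 15 genes and 0.29 over all 4955 genes with such a pair. Of the 41 log2 ratios, 21 were smaller in size than 0.24. Over all genes, where the brightest probe set was past 2-fold and a second was measured, the second had the same sign in 129 of 138 cases and was itself past 2-fold in 65.

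**Figure D3:**
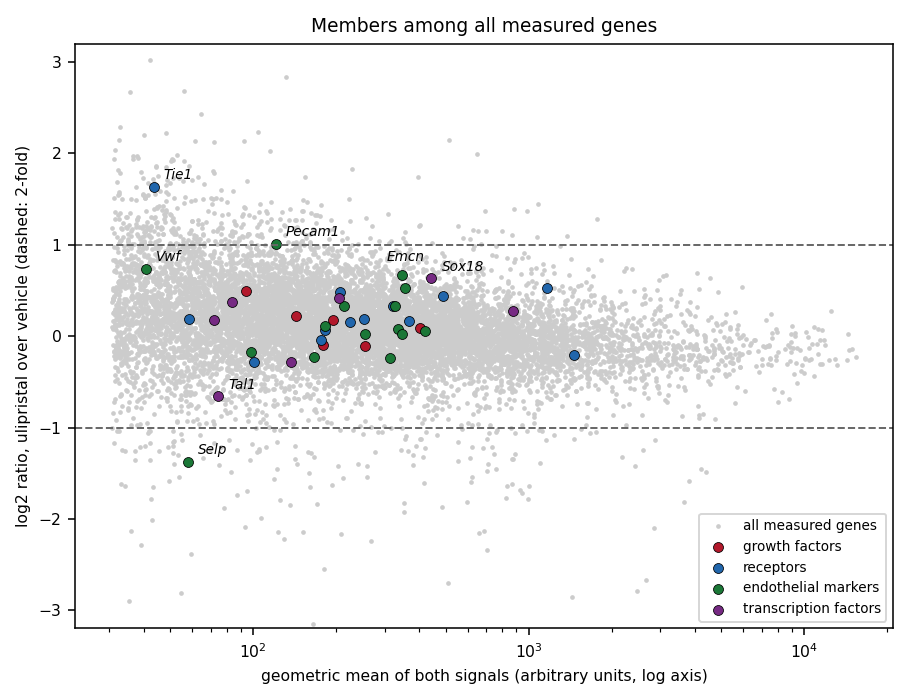
Log2 ratio against the geometric mean of both signals (log axis) for all 11364 measured genes (grey) and the 41 measured members (coloured by class), with dashed lines at 2-fold and 7 grey points beyond the axis. Grey points spread more widely at low signal, where Tie1, Vwf and Selp lie, and the members sit within that spread.

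The 42 genes were set beside 56 other genes of vessel growth, a list that holds Notch, ephrin, BMP and flow-response genes of endothelium. Of the 55 on the array 48 were measured, 1 was called higher and 1 lower, with a median log2 ratio of 0.05. Over all measured genes 3.34% were called higher and 1.56% lower. The called pair were a ligand and its receptor, which are known to mark arteries and veins. Efnb2, ephrin B2 of arterial endothelium, which other ovarian cells may also make, read 1440 with vehicle and 329 with ulipristal, 4.37-fold lower, and its other measured probe set gave a log2 ratio of -1.56. Ephb4, its receptor on venous endothelium, read 107 and 226, 2.11-fold higher on 1 probe set. Ligand and receptor were thus called in opposite directions. Ephb4 passed 2-fold by a small margin, at a log2 ratio of 1.08, and its value under other scalings was not examined. Of the measured Notch genes and targets on the list, Notch4 and Hey2 had log2 ratios of 0.55 and 0.28, and Hey1 had -0.33. A shift between arteries and veins was not tested. By their brightest probe sets the other 46 measured genes lay under 2-fold. Vegfd, another VEGF, read 451 and 354, and its 3 measured probe sets had log2 ratios from -1.02 to -0.35. Over the whole list 26 ratios were above 0 and 22 below.

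Lymphatic markers gave 1 call. Lyve1, a hyaluronan receptor of lymphatic endothelium and of some macrophages, read 1400 and 552, 2.54-fold lower, with log2 ratios of -1.34 and -1.85 on its 2 measured probe sets. The other 3 measured genes of this list did not reach 2-fold: Mmrn1 read 218 and 182, Reln 274 and 264, and Pdpn 475 and 621. Lyve1 therefore stood apart from the rest of its list in size, and Flt4, a member expressed in lymphatic endothelium, was higher with ulipristal on its 1 measured probe set. The median log2 ratio of the 4 measured genes was -0.16, with 3 below 0 and 1 above. Their summed signal was 2368 and 1618, and without Lyve1 968 and 1066. That second sum was higher through Pdpn, as Mmrn1 and Reln read lower.

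Cells around vessels read much like the members. By their brightest probe sets the 12 pericyte and smooth muscle genes had a median log2 ratio of 0.27 and none past 2-fold. The largest ratios were those of Cnn1, a smooth muscle gene, at 371 and 635, and Cspg4, a pericyte proteoglycan, at 67.9 and 108. The other measured Cspg4 probe set had a log2 ratio of -0.22. Among the measured Rgs5 probe sets the lowest log2 ratio was -1.47, past 2-fold lower. The other measured Notch3 probe set was past 2-fold higher. The stroma list had a median of 0.22, with Tcf21 2.22-fold higher. The leukocyte list, given above beside Pecam1, had summed signals of 1305 and 1624, and its second highest ratio was that of Lyz2, a lysozyme of myeloid cells, at 380 and 549. Red cell genes were level, Alas2 at 129 and 141 and Slc4a1 at 32.5 and 32.8.

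Some tissues beside the follicle, each with its own capillaries, had higher markers on the ulipristal array. The oviduct list had a median of 1.18 over 7 measured genes, 5 of them past 2-fold. Over all measured genes 3.34% were called higher, which is also the share to set beside the other lists here. Foxj1, the regulator of motile cilia, read 19.1 and 75.1 and the cilium gene Ccdc39 read 27.4 and 72.9. Both were under the limit for a measured gene on the vehicle array and passed it only through their ulipristal signal. Tmem212, at 57.5 and 152, and Wfdc2, at 30.9 and 70.0, were above the limit on both arrays, Wfdc2 only just so with vehicle. The summed signal of the list was 3909 and 6244, most of it from Ovgp1, the oviduct glycoprotein, and was 268 and 603 without it. Both sums, the list's median and its count past 2-fold include Foxj1 and Ccdc39, and are raised by them. The adipose list had a median of 0.66 and summed signals of 7550 and 9314, and its only call, the lipid droplet gene Cidec, read 28.7 and 67.9, also under the limit on the vehicle array. The granulosa list had 4 of 10 genes at least 2-fold higher, with Inhbb at 656 and 1781, Inhba at 544 and 1426, Esr2 at 43.1 and 98.1 and Fshr at 51.1 and 116. The theca list had a median of 0.06 and none past 2-fold, with Cyp17a1 at 851 and 1138 and Aldh1a1 at 2600 and 3457. No gene of the oviduct list was below the floor of 7.17 on either array, and 1 gene of the adipose list was below it on both. Summed signals of the member classes, from vehicle to ulipristal, were 1233 and 1305 for growth factors, 4753 and 5408 for receptors, 3394 and 3830 for endothelial markers and 1714 and 2103 for transcription factors. The part of oviduct and adipose tissue in the values of Tie1, Pecam1 and the other higher members was not tested.

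**Figure D4:**
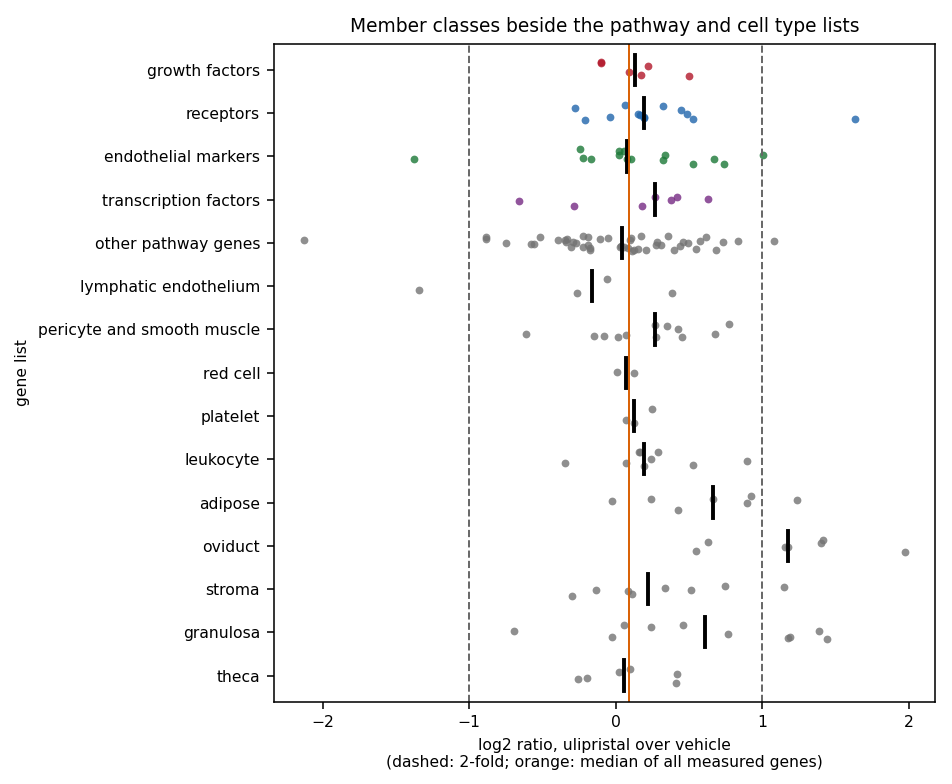
Log2 ratio of each measured gene in the 4 member classes and the 11 other lists (points, spread vertically only for legibility), with a black bar at each list's median, an orange line at the median of all measured genes and dashed lines at 2-fold. The member classes lie near the orange line, with medians of 0.08 to 0.27, and the oviduct, adipose and granulosa medians lie farther right.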

How the data were processed

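Ovarian RNA was hybridised to 2 Affymetrix mouse arrays, 1 per treatment, grouped by the treatment label. The authors deposited 1 linear intensity per probe set. Affymetrix Expression Console version 1 and MAS5 are named in the submitters' processing notes, without each one's step. Their mean without the lowest and highest 2% is 150.001 on both arrays, so a shift common to most genes is hidden. For the array's annotation, a genome build was not given in the sources used.

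Of 45101 probe sets, 34945 named 1 gene, 932 several, 9160 none and 64 were controls. The RefSeq gene table (GRCm38.p6, used for names) held all 42 member identifiers. Signals below 7.17, the 25th percentile, were set to that value before log2 was taken. The brightest probe set stood for a gene, and the limit for a measured gene was the median of probe sets, 30.8. Every member is named. Of other lists, genes past 2-fold were named, at most 4 a list, or the 2 largest where none passed, and any other gene named was chosen after its values were seen. The members and lists were chosen with earlier results of these data known. Steps were tested on simulated data. The alternatives were other scalings, floors, filters, a pseudocount of 50, other ways to pick probe sets and other folds. The number of arrays limits the precision. Software was matplotlib 3.10.9, statsmodels 0.14.6, pandas 2.3.3, numpy 2.4.6 and Python 3.11.15.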

Additional observations from a re-analysis of the deposited data

How the results depend on the processing

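The counts of 2 genes at least 2-fold higher and 1 lower were small and moved with several settings. The count higher was 1 after median centring, quantile normalization or lowess centring, where Pecam1 dropped out. It was 0 with the filter at the 75th percentile, which left 28 members and removed Tie1, Pecam1 and Selp, and 0 with 50 added in place of the floor. The count lower was 0 under both of those. At 1.5-fold the counts were 5 and 2, beside 12.3% and 4.58% of all measured genes. At 3-fold they were 1 and 0, beside 0.53% and 0.50%. The shares of all measured genes moved with the settings too. Called higher and lower were 2.74% and 1.80% after median centring, 2.35% and 1.75% after quantile normalization and 2.30% and 1.79% after lowess centring. With the filter at the 75th percentile the shares were 0.82% and 1.43%, and with 50 added 0.48% and 0.86%. Selp was lower and Tie1 higher in every setting that measured them. Each rests on 1 measured probe set, so only the 3 other scalings could have changed a sign. The median log2 ratio of the members was 0.062 after lowess centring, beside 0.037 over all measured genes, and ran from 0.073 to 0.17 under the other settings. Over all genes the share of called genes that were higher, 68.2%, was 57.3% after quantile normalization and 35.5% with 50 added. The ratios of Esam, Cldn5, Ptprb and Tek changed sign under at least 1 of 3 other scalings. Of 479 single values of the members under 12 alternatives, 467 stayed on their side of the fold limit and no called value changed sign. As 38 of the 41 were not called, this tally does not show whether their signs held. With the median over probe sets the log2 ratios of Eng, Clec14a, Ptprb and Vegfc took the other sign, at -0.19, -0.08, -0.10 and 0.11. No paired analysis was possible because each treatment has 1 array. Signal over background limits Tie1, Vwf, Selp and Esm1 most.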

Other observations

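Ramp2 also has 2 probe sets whose annotation names a second gene, Vps25, and which were therefore outside the counts above. They read 157 and 231, and 324 and 393, with log2 ratios of 0.56 and 0.28, both above 0 as was the probe set that names Ramp2 alone.

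Among the vessel growth genes too dim to be counted were the growth factor Pgf, at 18.1 with vehicle and 29.3 with ulipristal, the Notch ligand Dll4, at 20.7 and 27.1, and the Aplnr ligand Apela, at 27.3 and 15.2.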
